A study of Mus musculus with 18 samples.

Results

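Ovaries of Pik3cd-/- mice treated with PMSG were compared with ovaries of Pik3cd-/- mice treated with oestradiol (E2), on 3 arrays each, chosen by their titles out of 18 arrays in the study. PMSG (pregnant mare serum gonadotropin) was given once, at 10 IU per mouse, and the ovaries were taken 44 hours later. E2 was given as 3 injections of 0.03 ml, 24 hours apart, and the ovaries were taken 72 hours after the first; its concentration was not given in the sources used here. Untreated Pik3cd-/- ovaries and the matching PMSG, E2 and untreated groups of Pik3cd+/- ovaries, also 3 arrays each, were used for orientation. All mice were females of a C57B6J/S129 background, aged 21 days when treatment began or, if untreated, when the ovaries were taken. The labels say no more of the Pik3cd allele than the genotype. The labels name no group injected with vehicle, and the hormones, the hours, the age at collection and the number of injections differed together between PMSG and E2 and cannot be told apart.

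The protein made from Pik3cd, p110 delta, is one of the enzymes of class I phosphoinositide 3-kinase, which make the membrane lipid that recruits AKT kinases. In the ovary, theca cells turn cholesterol into androgens and granulosa cells turn androgens into oestrogens. PMSG has both FSH-like and LH-like activity in the mouse: it drives follicles to grow through the FSH receptor of granulosa cells and steroid synthesis through the LH-type response of theca cells. Oestradiol acts on the oestrogen receptors of granulosa, theca and stromal cells and also lowers the animal's own gonadotropins, and it is used to obtain growing follicles without added gonadotropin.

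The deposited values were linear intensities of Affymetrix Mouse Genome 430 2.0 arrays. Median signals lay between 49.2 and 50.9 on the Pik3cd-/- arrays, and those of the Pik3cd+/- arrays were not summarized. Having 3 arrays a group limits how precise each value can be. Granulosa and oocyte markers were present on every Pik3cd-/- array (the granulosa transcription factor Foxl2 at 2577 to 3777, the oocyte coat protein gene Zp3 at 2963 to 5619), whereas the lymphocyte genes Cd79a and Cd3e lay between 19.7 and 63.2 on those arrays. Of 6 probe sets for Pik3cd, the clearest read 20.4 to 26.4 after PMSG and 19.1 to 27.6 after E2 in Pik3cd-/- ovaries, against 67.6 to 71.7 and 66.9 to 73.1 in Pik3cd+/- ovaries. The brightest probe set, used as Pik3cd in the tests, did not show the loss. It read 2958 to 3264 after PMSG and 2949 to 3879 after E2 in Pik3cd-/- ovaries, against 3403 to 4833 and 2329 to 3075 in Pik3cd+/- ovaries.

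Replicates after PMSG were closer to each other than replicates after E2 (pairwise correlations of 0.991 to 0.994, against 0.961 to 0.978), and 2 of the E2 arrays stood apart. On E2 replicate 2 the fat cell hormone gene Adipoq read 11.5, against 1355 and 3682 on E2 replicates 1 and 3, while the PMSG arrays read 1028, 969 and 1327. The mean of 7 adipocyte genes, as log2 of signal plus a pseudocount, was 8.69, 8.71 and 8.98 after PMSG against 8.96, 6.25 and 9.98 after E2, in the order of the replicates. The 17 stromal fibroblast genes (10.42, 10.41 and 10.28 against 10.18, 9.41 and 10.48), the 11 smooth muscle genes (9.74, 10.27 and 10.11 against 10.08, 9.05 and 10.08) and the 18 macrophage genes (8.0, 7.67 and 7.64 against 7.94, 6.73 and 8.44) were likewise lowest on E2 replicate 2. On E2 replicate 3 the 31 oocyte genes averaged 9.36, against 10.17 and 10.20 on E2 replicates 1 and 2 and 9.70, 9.81 and 9.83 after PMSG. The steroid synthesis genes, by contrast, lay within 9.11 to 9.15 on all 3 E2 arrays. The part of these lists in the results was not tested beyond leaving out each array in turn.

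**Figure D1:**
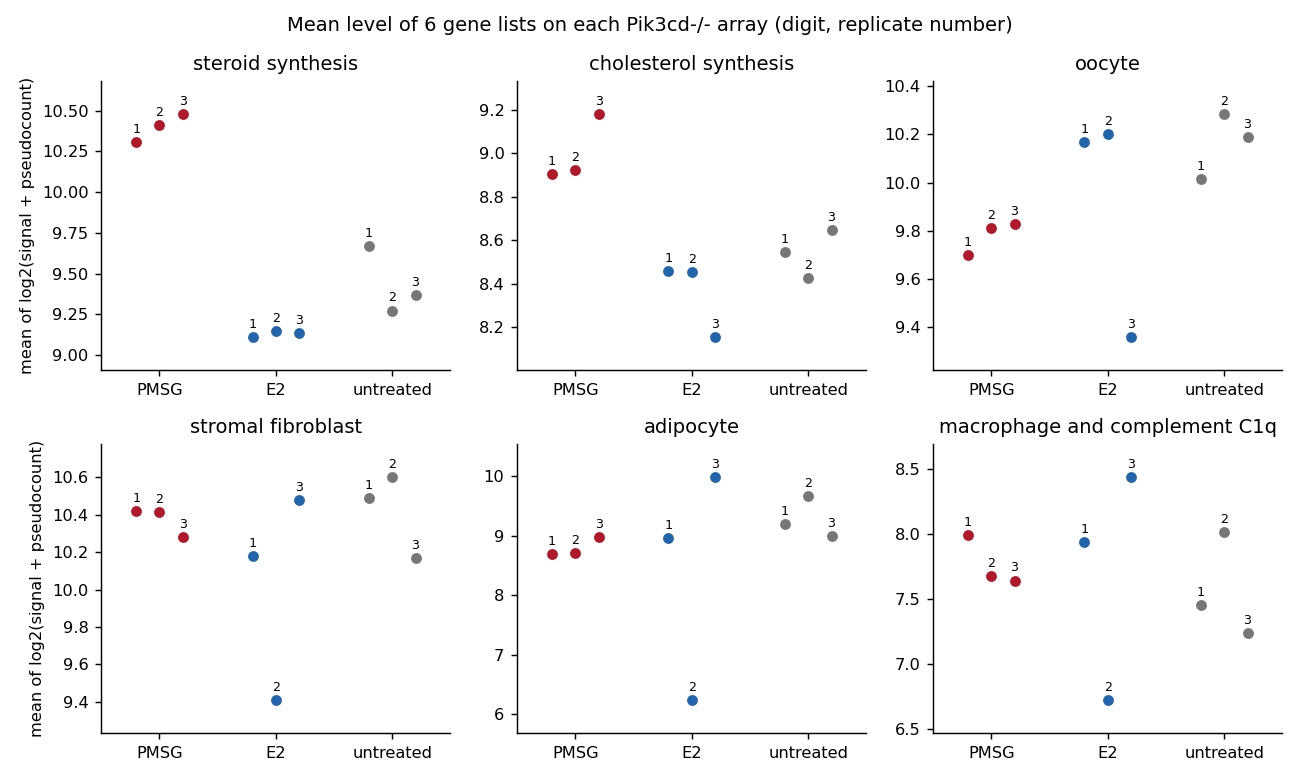
Mean log2(signal + pseudocount) of the members of 6 gene lists (vertical axes) on each Pik3cd-/- array after PMSG (red), after E2 (blue) and untreated (grey), with the replicate number over each point. E2 replicate 2 is lowest for stromal, adipocyte and macrophage genes and E2 replicate 3 for oocyte genes, while the steroid synthesis means of the PMSG arrays all lie above 10.3 and those of the E2 arrays below 9.2.

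PMSG-treated Pik3cd-/- ovaries differed from E2-treated ones mainly by higher expression, led by the enzymes that turn cholesterol into androgens. Of 12711 genes tested with limma, 520 (4.09%) passed an adjusted p of 0.05: 421 were higher after PMSG (3.31% of genes tested) and 99 lower (0.779%). At least a 2-fold difference was reached by 87 of the higher and 5 of the lower genes, and the median size of the called differences was 0.58 on the log2 scale. For comparison, the arrays of the treatments did not overlap in 26.1% of all genes tested, in 16.9% with PMSG above E2 and in 9.24% with PMSG below. The count rested on single arrays: it was 239, 254 and 259 without PMSG replicate 1, 2 or 3, 426 without E2 replicate 1, 231 without E2 replicate 2 and 1338 (717 higher, 621 lower) without E2 replicate 3. A fit to these 6 arrays alone, without the other groups' share in the estimate of the spread, called 212.

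Cyp17a1, the 17-hydroxylase and lyase that makes androgens in theca cells, differed most. Its signal was 3005, 3352 and 6062 after PMSG, against 46.9, 71.9 and 112 after E2. The groups lay far apart, by a log2 difference of 5.60 ± 0.61 (SE of the fit, 3 arrays a group, adjusted p = 7.93e-05), or 48.5-fold. Cyp11a1, the mitochondrial enzyme that cuts the side chain of cholesterol in the opening step of steroid synthesis, read 5819, 7495 and 7089 after PMSG, against 295, 217 and 415 after E2. That is a log2 difference of 4.46 ± 0.46 (adjusted p = 4.95e-05). Fdx1, the ferredoxin that hands electrons to Cyp11a1, read 6269, 6484 and 7543 after PMSG, against 1851, 1561 and 1715 after E2 (1.98 ± 0.18, adjusted p = 1.66e-05). In whole ovaries, more cells of a type and more RNA per cell cannot be told apart for any of these genes.

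The steroid synthesis list held 14 tested genes, of which 5 rose and none fell (3.31% and 0.779% of all genes tested did). Unless untreated ovaries are named, rose and fell mean higher and lower after PMSG than after E2. Their median log2 difference was 0.61, against 0.02 over all genes tested. All 14 had a difference above 0. Besides the genes above, the orphan receptor gene Nr5a1, a transcription factor of steroid-making cells, read 941, 890 and 874 after PMSG against 553, 501 and 419 after E2 (0.87 ± 0.15, adjusted p = 0.00433). Hsd3b1, the dehydrogenase that makes progesterone from pregnenolone, read 12551, 12680 and 12233 after PMSG against 8432, 7579 and 7756 after E2 (0.66 ± 0.13, adjusted p = 0.011). Its call was lost without E2 replicate 2 (adjusted p = 0.0512), whereas those of Cyp17a1, Cyp11a1, Fdx1 and Nr5a1 passed under all 16 alternative settings.

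Not every step of the route moved alike. Star, which carries cholesterol into mitochondria, read 250, 465 and 669 after PMSG against 156, 111 and 115 after E2. Its groups did not overlap, but the difference did not pass (1.70 ± 0.56, adjusted p = 0.107). The SE draws on the spread within all groups of the fit. The PMSG arrays of Pik3cd+/- ovaries, at 198, 2011 and 384, were spread more widely than these. Hsd17b7, which serves both cholesterol and oestradiol synthesis, had 0.93 ± 0.41 (adjusted p = 0.224), and Hsd17b1, which makes oestradiol from oestrone in granulosa cells, 0.56 ± 0.39 (adjusted p = 0.468). The electron carrier Cyb5a (0.07), the cholesterol carrier Stard5 (0.02) and the repressor Nr0b1 (0.01) had differences near 0, with adjusted p of 0.812 to 0.984. Akr1c18, which breaks down progesterone, had 0.43 ± 0.29, the sterol carrier Stard4 0.29 ± 0.21 and the orphan receptor gene Nr5a2 0.15 ± 0.15, none of which passed.

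**Figure D2:**
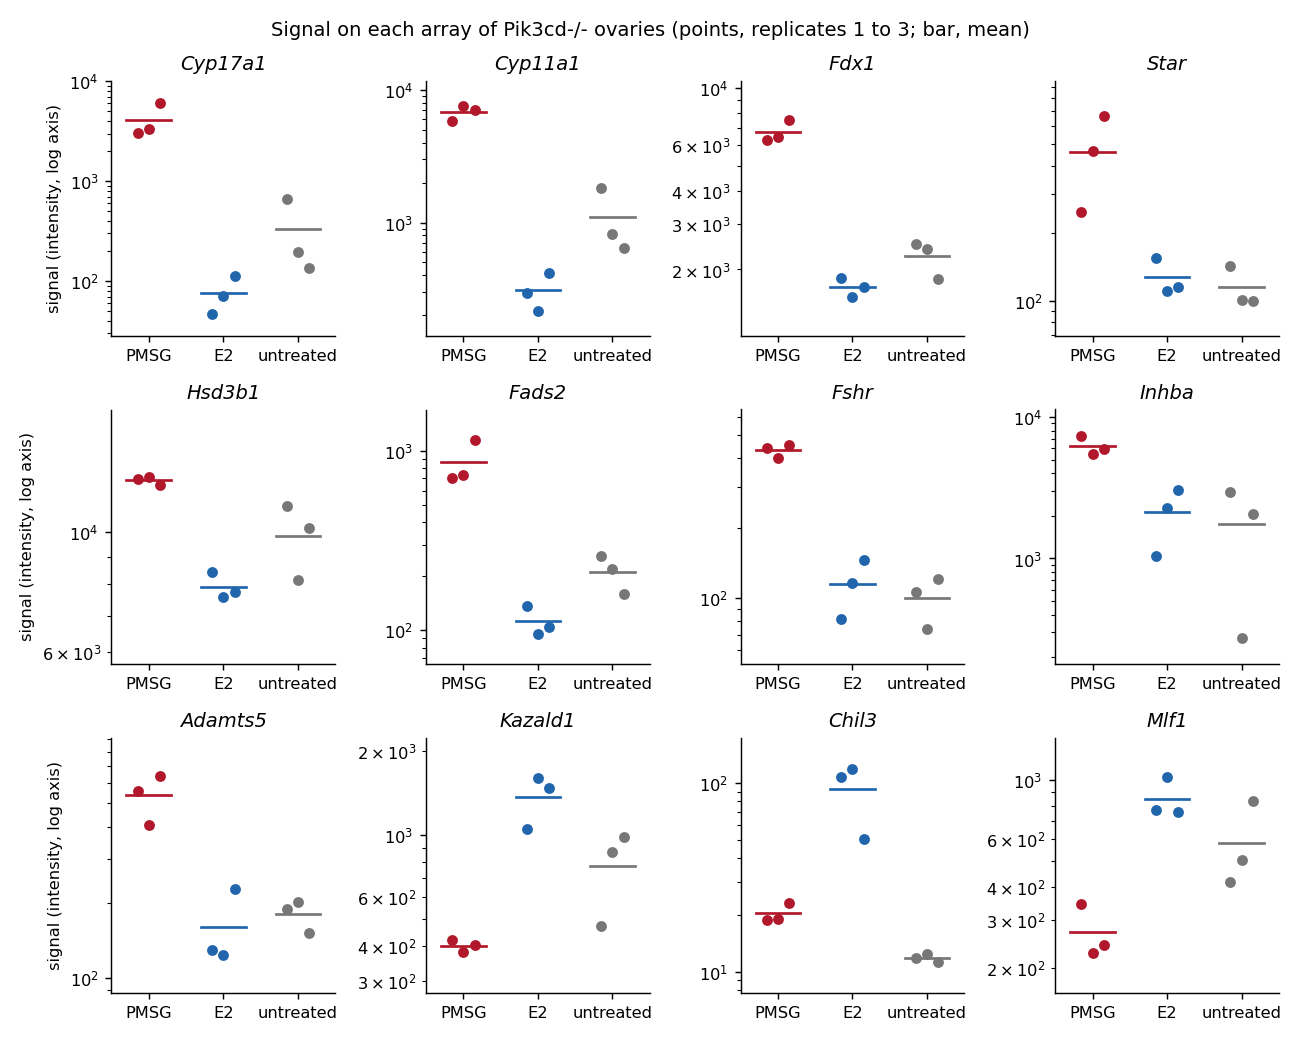
Signal (linear intensity on log axes) of 12 genes on each Pik3cd-/- array after PMSG (red), after E2 (blue) and untreated (grey), with the mean of 3 arrays as a bar. Cyp17a1 and Cyp11a1 lie more than 10-fold apart between PMSG and E2, Inhba and Star are spread widely within a group, and Chil3 is highest after E2.

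The promoters of 3 of the 5 called steroid synthesis genes, Cyp11a1, Fdx1 and Hsd3b1, are shown because these genes rose together and because NR5A factors and cAMP signalling are textbook regulators of them. They come from RefSeq (GRCm38.p6) and cover 250 bases before to 50 bases after the start, 5′ to 3′ on the gene's strand. Cyp11a1 has 2 listed starts, at chr9:57997774-57998073 and chr9:58014702-58015001 (plus strand), Fdx1 lies at chr9:51963553-51963852 (minus strand) and Hsd3b1 at chr3:98859745-98860044 (minus strand). Those of Cyp17a1 and Nr5a1 were not analysed here. Capitals mark the only match found.
Cyp11a1 start 1: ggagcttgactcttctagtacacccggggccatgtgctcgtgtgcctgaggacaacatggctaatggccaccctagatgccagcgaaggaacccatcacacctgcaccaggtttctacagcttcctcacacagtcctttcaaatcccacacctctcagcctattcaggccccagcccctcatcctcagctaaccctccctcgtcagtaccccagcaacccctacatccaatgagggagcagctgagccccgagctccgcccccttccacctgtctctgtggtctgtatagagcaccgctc
Cyp11a1 start 2: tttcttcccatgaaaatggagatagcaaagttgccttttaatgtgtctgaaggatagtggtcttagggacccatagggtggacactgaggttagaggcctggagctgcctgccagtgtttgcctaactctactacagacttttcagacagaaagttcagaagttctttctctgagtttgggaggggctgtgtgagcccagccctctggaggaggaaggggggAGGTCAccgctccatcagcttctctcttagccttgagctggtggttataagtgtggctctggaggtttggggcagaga
Fdx1: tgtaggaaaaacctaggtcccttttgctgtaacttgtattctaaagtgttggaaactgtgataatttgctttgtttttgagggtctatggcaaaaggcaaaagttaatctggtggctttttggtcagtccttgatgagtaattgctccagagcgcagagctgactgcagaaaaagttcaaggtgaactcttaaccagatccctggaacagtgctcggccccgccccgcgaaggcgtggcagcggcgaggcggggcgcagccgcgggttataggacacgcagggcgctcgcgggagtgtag
Hsd3b1: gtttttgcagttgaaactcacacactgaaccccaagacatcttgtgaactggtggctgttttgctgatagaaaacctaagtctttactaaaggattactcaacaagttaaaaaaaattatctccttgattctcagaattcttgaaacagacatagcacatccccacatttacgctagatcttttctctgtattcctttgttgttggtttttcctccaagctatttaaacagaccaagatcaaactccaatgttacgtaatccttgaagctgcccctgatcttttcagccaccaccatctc

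Both strands were searched for AAGGTCA, the half-site of NR5A factors, TGACGT, the core of the cAMP response element, and the palindromic oestrogen response element. None of these motifs occurs in the 4 windows. The shorter AGGTCA, contained in the NR5A half-site and searched after those results were seen, occurs once, on the plus strand 28 to 23 bases before the second Cyp11a1 start. Among 32851 listed promoters of this length, AAGGTCA occurs in 4.72%, TGACGT in 7.51%, the oestrogen response element in 0.07% and AGGTCA in 16.3%. A match describes letters only, and a missing match says nothing of a factor's binding.

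Genes of cholesterol synthesis, the pathway that builds the precursor of all steroids, were also higher after PMSG. Of 19 tested, 10 rose (3.31% of all genes did) and none fell, with a median log2 difference of 0.63. In 15 all PMSG arrays lay above all E2 arrays, which was so for 16.9% of all genes tested. Cyp51, the lanosterol demethylase, read 267, 251 and 361 after PMSG against 155, 132 and 116 after E2 (1.07 ± 0.14, adjusted p = 3.0e-04). Tm7sf2, a sterol reductase, read 157, 134 and 260 after PMSG against 55.6, 62.3 and 56.7 after E2 (1.47 ± 0.21, adjusted p = 6.9e-04). PMSG replicate 3 was the highest array for both. Nsdhl, another sterol-processing dehydrogenase, rose by 0.75 ± 0.13 (adjusted p = 0.00508), and Srebf2, the transcription factor that switches the pathway on, by 0.45 ± 0.08 (adjusted p = 0.00604).

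The other members that rose, named after their values were seen, were Dhcr7 (1.07), which completes the pathway, Idi1 (1.01), Fdps (0.81), Sqle (0.72), Sc5d (0.63) and Ebp (0.45). Msmo1 (0.78, adjusted p = 0.0913) and Lss (0.56, adjusted p = 0.0573) did not pass, and Insig1, which holds SREBP back in the endoplasmic reticulum, had -0.14 ± 0.13. The count fell to 4 without PMSG replicate 3, 5 without PMSG replicate 2 and 6 without PMSG replicate 1, without E2 replicate 2 or in the fit to the 6 arrays alone, while the median stayed between 0.52 and 0.71. Among 13 genes of cholesterol uptake and storage 2 rose (3.31% of all genes tested did). They were Scarb1, the receptor that takes cholesterol from high-density lipoprotein (1578, 1935 and 2014 after PMSG against 922, 924 and 809 after E2, 1.05 ± 0.20, adjusted p = 0.00682), and the lysosomal lipase Lipa (0.58 ± 0.13, adjusted p = 0.0161), which lost its call without PMSG replicate 1 or 3 or without E2 replicate 1 or 2 (adjusted p up to 0.0865).

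Among the genes of the FSH response in granulosa cells, 2 of 19 rose and none fell (3.31% and 0.779% of all genes tested did). Fshr, the FSH receptor itself, read 443, 401 and 453 after PMSG against 81.6, 116 and 147 after E2. It was 1.87 ± 0.30 higher on the log2 scale (adjusted p = 0.00226) and passed under every setting tried. Irs1, an adaptor between the insulin and IGF1 receptors and phosphoinositide 3-kinase, rose by 0.43 ± 0.09 (adjusted p = 0.0103), a call that was lost in the fit to the 6 arrays alone (adjusted p = 0.0822). Larger differences that did not pass were those of the BMP antagonist Grem1 (2.26 ± 0.65, adjusted p = 0.0666) and the inhibin and activin subunit Inhba. Inhba read 7372, 5493 and 5961 after PMSG against 1038, 2282 and 3059 after E2 (1.68 ± 0.66, adjusted p = 0.177). Its untreated arrays, at 2928, 273 and 2066, were also widely spread.

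Other granulosa genes had small differences. The inhibin alpha subunit Inha had 0.09, the follistatin gene Fst 0.05, Ccnd2, the D cyclin of granulosa growth, -0.12 and the anti-Mullerian hormone gene Amh 0.00, with adjusted p of 0.649 to 0.991. Foxl2 (0.24), Kitl (-0.09), which makes the ligand for the oocyte's Kit receptor, and Inhbb (0.53, adjusted p = 0.577) did not pass either. Of 18 granulosa identity genes, Fshr and Nr5a1 rose and Slc18a2, the vesicular monoamine transporter, fell (3.31% and 0.779% of all genes tested did). Slc18a2 read 1189, 1291 and 1134 after PMSG against 1813, 2344 and 2132 after E2 (-0.79 ± 0.15, adjusted p = 0.00829). Within the inhibin, activin and TGF-beta family none of 27 genes passed (4.09% of all genes tested did), and the range ran from -0.61 for Bmp2 to 2.26 for Grem1.

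Luteal and theca genes overlapped with the steroid lists. Beside the counts that follow, 3.31% of all genes tested rose. Of 12 luteal genes 4 rose, namely Cyp11a1, Scarb1, Hsd3b1 and Parm1, the last a membrane protein with the smallest difference of them (0.41 ± 0.09, adjusted p = 0.0207); without E2 replicate 2 the count was 2, and Parm1 was also lost without PMSG replicate 1, 2 or 3. Of 12 theca and interstitial genes 3 rose: Cyp17a1, the retinaldehyde dehydrogenase Aldh1a1 (0.95 ± 0.18, adjusted p = 0.00789) and the mesenchymal transcription factor Tcf21 (0.41 ± 0.08, adjusted p = 0.00859), the last of which was lost without E2 replicate 2. The hedgehog pathway genes of theca cells, Gli1 (0.04) and Ptch1 (-0.18), did not pass. Of 11 genes of the LH response and cumulus expansion 2 rose, the transcriptional coactivator Cited1 and the protease Adamts1, while the progesterone receptor gene Pgr was scattered after E2 (172, 165 and 90.9 after PMSG against 311, 67.5 and 512, -0.67 ± 0.59).

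Among known oestrogen target genes, as over all genes tested, more were called higher after PMSG than after E2. Of 21 tested, 5 rose after PMSG and 1 fell (3.31% and 0.779% of all genes tested did), and their median was 0.31. Susd3, a surface protein gene that oestrogen induces in human breast cancer cells, read 677, 665 and 834 after PMSG against 163, 164 and 133 after E2 (2.18 ± 0.23, adjusted p = 7.05e-05). Cited1 read 118, 108 and 153 against 43.2, 36.8 and 29.8 (1.58 ± 0.18, adjusted p = 1.27e-04). Both pairs of groups were clearly apart. Myc, a growth-promoting transcription factor (0.70 ± 0.10, adjusted p = 7.4e-04), and Tgm2, a protein cross-linking enzyme (0.71 ± 0.14, adjusted p = 0.00784), also rose, the call of Tgm2 being lost in the fit to the 6 arrays alone (adjusted p = 0.0709). Cyp26b1, which breaks down retinoic acid, rose by 1.08 ± 0.21 and Xbp1, a transcription factor of the secretory pathway, fell by 0.33 ± 0.09 (adjusted p = 0.00825 and 0.0432; both named after their values were seen). No member was called lower once any array other than E2 replicate 3 was left out. Greb1, a coactivator of the oestrogen receptor, did not pass with its brightest probe set (0.40, adjusted p = 0.201), but did in the fit to the 6 arrays alone (adjusted p = 0.0476) and with its most variable probe set (0.68, adjusted p = 0.0375). The receptor genes Esr1 (-0.05, adjusted p = 0.944) and Esr2 (0.08, adjusted p = 0.833) did not pass.

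Proteases that remodel the matrix around follicles, listed with their inhibitors, were called higher after PMSG in 7 of 17 cases and lower in none, with a median of 0.36. Of all genes tested, 3.31% were called higher and 0.779% lower. Adamts5, a protease of cartilage-type proteoglycans, read 557, 407 and 643 after PMSG against 130, 123 and 227 after E2 (1.72 ± 0.21, adjusted p = 2.57e-04). Adamts9 read 360, 377 and 377 against 214, 188 and 224 (0.81 ± 0.10, adjusted p = 2.03e-04), and Plau, the urokinase that starts the plasmin cascade, read 318, 300 and 379 against 213, 134 and 126 (1.07 ± 0.19, adjusted p = 0.00553). No PMSG array overlapped an E2 array for these 3 genes. Adamts15 rose by 1.02 ± 0.20 (adjusted p = 0.00822) and Adamts1, which cleaves versican, by 0.72 ± 0.19 (adjusted p = 0.0414). The lysosomal protease Ctsl (0.30) and the protease inhibitor Timp1 (0.62), named after their values were seen, made up the 7. Without PMSG replicate 3 there were 4, and 3 in the fit to the 6 arrays alone, which ended the calls of Plau (adjusted p = 0.0583) and Adamts15 (adjusted p = 0.0709) among others. Adamts1 lost its call when any array other than E2 replicate 3 was left out.

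Among 24 genes of collagen, basal lamina and other matrix, 4 rose and none fell (3.31% and 0.779% of all genes tested did). Col4a4 and Col4a3, partner chains of basement membrane collagen IV, read 1318, 1402 and 1273 against 545, 537 and 606, and 320, 283 and 286 against 161, 144 and 133, in both cases PMSG before E2. Their log2 differences were 1.23 ± 0.12 (adjusted p = 2.28e-05) and 0.98 ± 0.12 (adjusted p = 3.0e-04), while the major collagen IV chains Col4a1 and Col4a2 had 0.38 and 0.43 and did not pass (adjusted p = 0.142 and 0.109). Vcan, the proteoglycan of the expanding cumulus matrix, rose by 1.23 ± 0.19 (adjusted p = 0.00171). Comp, a cartilage matrix protein, rose by 1.23 ± 0.32, but its call (adjusted p = 0.0414) was lost when any array other than E2 replicate 3 was left out. Stromal fibroblast genes, lowest on E2 replicate 2, had 2 of 17 higher (Pdgfra, the receptor of stromal growth factors, 0.81 ± 0.16, adjusted p = 0.00827, and Tcf21), with a median of 0.28 that became 0.04 without E2 replicate 2. In the fit to the 6 arrays alone both lost the call, so that none of the 17 passed (adjusted p = 0.0705 for Pdgfra and 0.0546 for Tcf21). For the matrix list the count was 3 without E2 replicate 2 and 9 without E2 replicate 3.

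**Figure D3:**
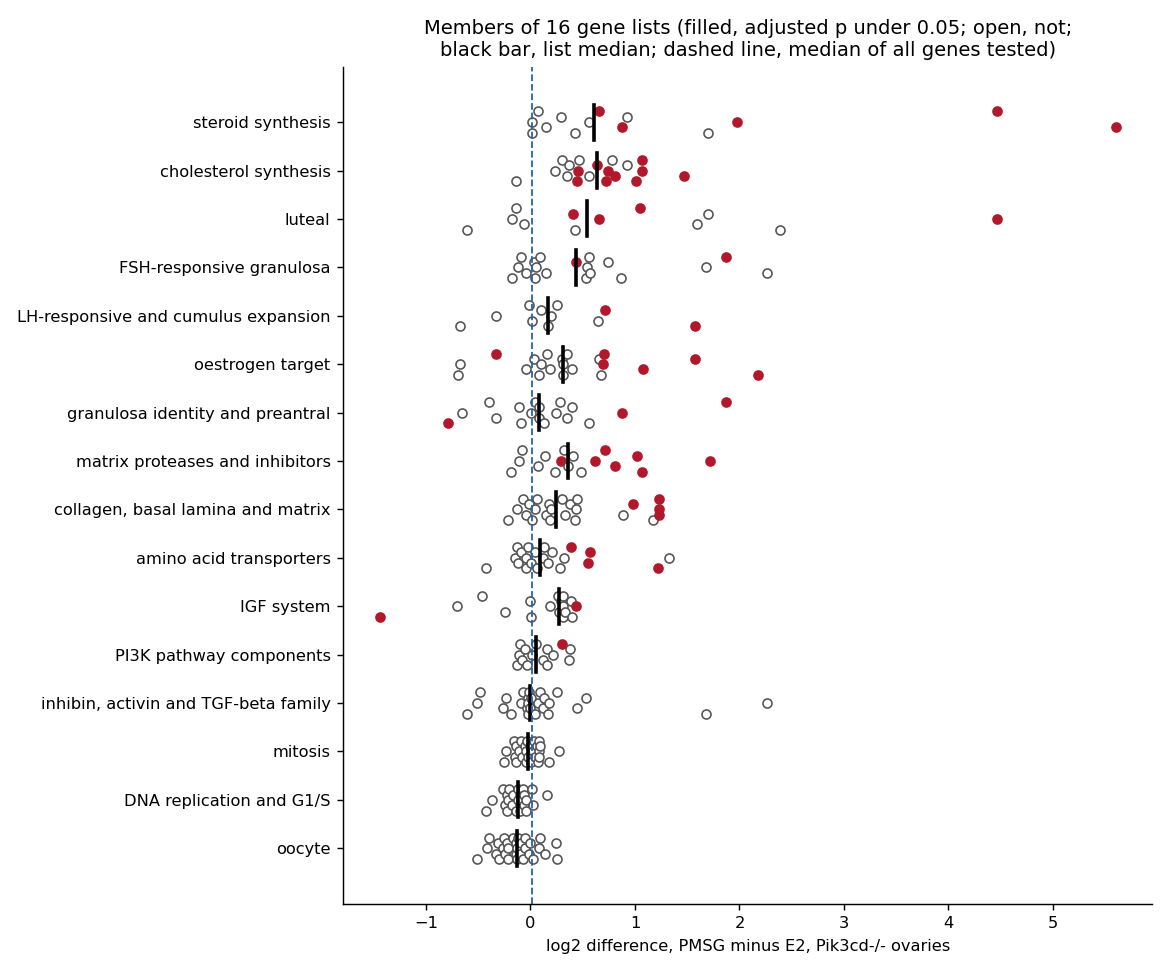
Log2 difference of PMSG minus E2 in Pik3cd-/- ovaries (horizontal axis) for every tested member of 16 gene lists (rows), filled where the adjusted p was under 0.05, with the list median as a black bar and the median of all genes as a dashed line. Called members of the steroid, cholesterol and matrix lists lie to the right, whereas no cell cycle or oocyte member is called. Of the oocyte members 25 of 31 lie below 0, and of the DNA replication members 22 of 25.

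Several of the largest rises lay outside these pathways or beside them. Fads2, the delta-6 desaturase of polyunsaturated fatty acids, had the smallest adjusted p of all genes: 701, 733 and 1151 after PMSG against 136, 95 and 105 after E2 (2.83 ± 0.21, adjusted p = 6.05e-06), and its 3 probe sets gave 1.98 to 3.00. Hao2, a peroxisomal oxidase of hydroxy acids, read 1222, 1315 and 1610 against 265, 229 and 245 (2.44 ± 0.32, adjusted p = 4.6e-04). Mgarp, a mitochondrial protein of steroid-making tissues, read 1574, 1637 and 1533 against 299, 214 and 374 (2.42 ± 0.33, adjusted p = 5.2e-04). In each case all PMSG arrays lay above all E2 arrays, and for Fads2 PMSG replicate 3 was the highest. The aldehyde dehydrogenase Aldh1a7 (2.09 ± 0.26, adjusted p = 3.0e-04) and the membrane dipeptidase Dpep1 (2.05 ± 0.25, adjusted p = 2.26e-04) rose about as much. Saa3, an acute-phase protein gene, was more variable, at 185, 597 and 482 after PMSG against 91.1, 49.2 and 80 after E2 (2.27 ± 0.49, adjusted p = 0.0165). Its call was lost without PMSG replicate 2, PMSG replicate 3 or E2 replicate 2.

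The genes that were lower after PMSG had smaller differences and belonged to no common list. Kazald1, a secreted protein with a Kazal-type protease inhibitor domain, read 419, 378 and 404 after PMSG against 1049, 1594 and 1475 after E2 (-1.73 ± 0.34, adjusted p = 0.00827). Chil3, a chitinase-like protein of activated macrophages, read 18.8, 19.1 and 23.2 against 108, 119 and 50.8 (-1.73 ± 0.28, adjusted p = 0.00224). Mlf1, the myeloid leukaemia factor, read 346, 226 and 243 against 773, 1020 and 756 (-1.63 ± 0.27, adjusted p = 0.0024). None of these groups overlapped, and all 3 calls held in each alternative that tested the gene. The difference of Chil3 moved between -0.86 and -2.10 over the alternatives, and its signals are dim. The macrophage list as a whole had no called gene among 18 (4.09% of all genes tested were called).

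The secreted hormone Stc1 fell by 1.44 ± 0.33 (adjusted p = 0.0211), the muscle transcription factor Myf5 by 1.29 ± 0.25 (adjusted p = 0.00827) and Lgr6, a receptor of R-spondins, by 0.94 ± 0.19 (adjusted p = 0.00955). Stc1 read 98.3, 77.1 and 60.0 after PMSG against 225, 228 and 219 after E2, and it lost its call when PMSG replicate 2 or 3 or E2 replicate 1 or 2 was left out. Nrsn1, a neuronal membrane protein (-0.96 ± 0.21), the digestive phospholipase Pla2g1b (-0.90 ± 0.20), the cartilage collagen Col9a2 (-0.88 ± 0.18) and Kdf1, a regulator of skin cell differentiation (-0.86 ± 0.22, adjusted p = 0.0414), completed the 10 largest named falls. The signals of Nrsn1 are dim, with means of 22.8 after PMSG and 54.1 after E2. The second probe sets of Lgr6, Pla2g1b and Kdf1 had smaller differences that did not pass, at -0.36, -0.58 and -0.25. Of the 10, Kdf1 lost its call most often, under 8 of the 15 alternatives that tested it. Pla2g1b was lost when any array other than E2 replicate 3 was left out, Nrsn1 without PMSG replicate 1, 2 or 3 or E2 replicate 2, Myf5 without PMSG replicate 2 and Col9a2 without PMSG replicate 3.

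The PI3K, FoxO, glycolysis and apoptosis lists gave 1 to 3 calls each, where 4.09% of all genes tested were called and 3.31% rose. Of 15 PI3K pathway genes Akt2 alone passed, at 448, 430 and 408 after PMSG against 358, 330 and 353 after E2 (0.30 ± 0.07, adjusted p = 0.0313), while its other probe sets gave 0.30 and -0.12. The call was lost without PMSG replicate 1, 2 or 3 or E2 replicate 2, and in the fit to the 6 arrays alone (adjusted p = 0.108). Among 18 FoxO genes and targets 3 rose, the cyclin Ccng2 (0.76 ± 0.15, adjusted p = 0.00757), the pyruvate dehydrogenase kinase Pdk4 (0.98 ± 0.26, adjusted p = 0.044) and the coactivator Cited2 (0.45 ± 0.12, adjusted p = 0.0469), whereas Foxo1 (-0.09) and Foxo3 (0.11) did not pass. Of 19 glycolysis and hypoxia genes, the pyruvate kinase Pkm (0.51 ± 0.13, adjusted p = 0.0343) and Pgam1 (0.39 ± 0.10, adjusted p = 0.0435) rose. The proapoptotic gene Bcl2l11 rose by 0.66 ± 0.18 (adjusted p = 0.0482) and was the 1 call among 13 apoptosis genes. Its other probe sets gave 0.02 to 0.30 and did not pass. Pdk4, Cited2, Pkm, Pgam1 and Bcl2l11 each lost the call when any of several single arrays was left out.

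Among 22 amino acid transporters 4 rose (3.31% of all genes tested did). Slc7a5 (0.55 ± 0.14, adjusted p = 0.031) and Slc3a2 (0.57 ± 0.12, adjusted p = 0.0138) form the exchanger of large neutral amino acids, Slc7a8 (1.22 ± 0.29, adjusted p = 0.0274) is a related chain that pairs with Slc3a2, and Slc7a1 (0.39 ± 0.07, adjusted p = 0.00728) carries arginine and lysine. The count was 1 without PMSG replicate 3 and 2 without PMSG replicate 2, and a second probe set of Slc7a1 gave 0.19. In the fit to the 6 arrays alone the count was 1, and Slc7a1 did not pass (adjusted p = 0.0578). In the Wnt list Fzd2, a Wnt receptor, was the 1 call of 21 (0.60 ± 0.16, adjusted p = 0.0434), lost when any array other than E2 replicate 3 was left out, while the Wnt antagonist Sfrp4 had a larger difference that missed the threshold (2.39 ± 0.68, adjusted p = 0.0617). In the IGF list of 17 genes Irs1 rose and Stc1 fell, and Igf1 had 0.31 ± 0.20 (adjusted p = 0.432).

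No cell cycle gene was called between the treatments in Pik3cd-/- ovaries, where 4.09% of all genes tested were called. In lists of this size a count of 0 is therefore near the share over all genes. None passed among 27 mitosis genes (median -0.02, range -0.25 to 0.27), 25 DNA replication genes (median -0.12) and 11 D cyclin and CDK inhibitor genes, though 3 DNA replication genes were called lower without E2 replicate 3. Of the DNA replication genes 22 lay below 0, and in 5 of the 11 D cyclin and CDK inhibitor genes all PMSG arrays lay above all E2 arrays, which was so for 16.9% of all genes tested. None of 31 oocyte genes passed either, with a median of -0.13. For these the result depended on E2 replicate 3, on which they were lowest: without it 11 of 31 were called lower after PMSG and their median was -0.40. Of all 12711 genes tested, 621 were called lower without that array. Gdf9, an oocyte growth factor, read 5459, 6171 and 5887 after PMSG against 7372, 7558 and 4146 after E2. No member was called among 19 immediate early, 16 interferon response, 20 G protein and cAMP, 11 smooth muscle, 15 endothelial, 11 surface epithelium, 8 oviduct, 6 adipocyte, 5 MHC class II, 3 lymphocyte and 1 blood gene, and the list medians lay between -0.11 and 0.57. Without E2 replicate 2, 2 of the 18 macrophage genes were called lower, as were 36 of all 12711 genes tested.

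The untreated Pik3cd-/- ovaries allow each treatment to be placed on its own. The comparisons with them share arrays with each other and with the one above, so each is given by its own values. Against untreated ovaries 301 genes (2.37%) were called after PMSG, 215 higher (1.69%) and 86 lower (0.677%), and 7 (0.0551%) after E2, 1 higher (0.00787%) and 6 lower (0.0472%). The 7 after E2 were the rise of Chil3 (2.23, adjusted p = 0.00883) and falls of Adamts9, Hsp90aa1, Osr2, Prss35, Susd4 and 6820431F20Rik, named because they were so few, and 1860 genes (14.6%) had an unadjusted p under 0.05. In the fit of the E2 and untreated arrays alone none of the 7 calls passed (limma, smallest adjusted p = 0.719, 806 genes at an unadjusted p under 0.05). Without an array the counts ran from 82 to 370 after PMSG and from 2 to 24 after E2.

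Cyp17a1 read 666, 194 and 137 in untreated ovaries, so PMSG lay above them by 3.87 (adjusted p = 0.00387) and E2 below them by an amount that did not pass (-1.74, adjusted p = 0.256). Cyp11a1 likewise had 2.76 after PMSG (adjusted p = 0.00595) and -1.70 after E2 (adjusted p = 0.213). For Dpep1 (2.10 and 0.05), Saa3 (2.15 and -0.13) and Fshr (2.04 and 0.17) nearly all of the distance lay between PMSG and untreated ovaries. Hao2 and Mgarp were in between, with 1.32 and 1.24 after PMSG and -1.12 and -1.18 after E2. In some other named genes most of the distance lay between E2 and untreated ovaries. Adamts9 had 0.21 after PMSG and -0.60 after E2, Pdgfra 0.18 and -0.63, Lipa 0.15 and -0.43 and Parm1 -0.08 and -0.49. Of these differences only that of Adamts9 after E2 passed. Among the falls, Stc1 was lower than untreated after PMSG (-1.75, adjusted p = 0.0124), Chil3 was higher than untreated after E2, and Kazald1 moved both ways without passing (-0.87 after PMSG, 0.87 after E2).

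**Figure D4:**
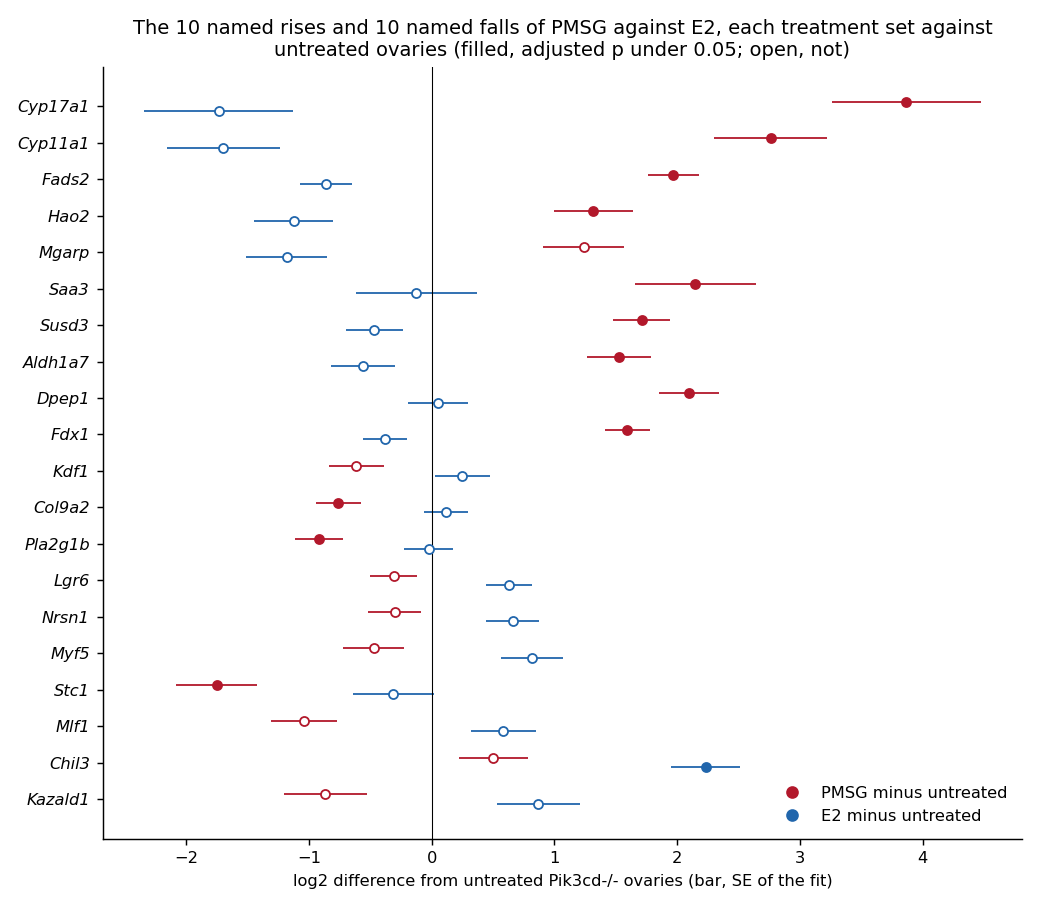
Log2 difference from untreated Pik3cd-/- ovaries (horizontal axis, bars are the SE of the fit) for the 10 rises and 10 falls named by the rule, after PMSG (red) and after E2 (blue), filled where the adjusted p was under 0.05. The rises are filled after PMSG for 9 of 10 genes and open after E2 for all 10, and Chil3 is the only gene of the 20 filled after E2.

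The same comparison in Pik3cd+/- ovaries shares no array with the one in Pik3cd-/- ovaries. The SE of both, however, draws on all 18 arrays of the fit. In Pik3cd+/- ovaries PMSG minus E2 gave 1421 called genes (11.2%), 449 higher (3.53%) and 972 lower (7.65%), and without single arrays 611 to 1650. Of the calls, 260 were shared in the same direction, which is 50% of the Pik3cd-/- and 18.3% of the Pik3cd+/- calls, and none went in opposite directions. Each gene had the same SE in both genotypes, which favours calls of genes with little spread in both. The shared calls are therefore not those of independent tests. Of the 421 genes higher in Pik3cd-/- ovaries, 387 (91.9%) were above 0 in Pik3cd+/- ovaries, and of the 99 lower ones 91 were below 0. Across all genes tested the differences of the genotypes correlated with r = 0.609 (Pearson) and rho = 0.405 (Spearman), as a description over genes that are not independent.

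**Figure D5:**
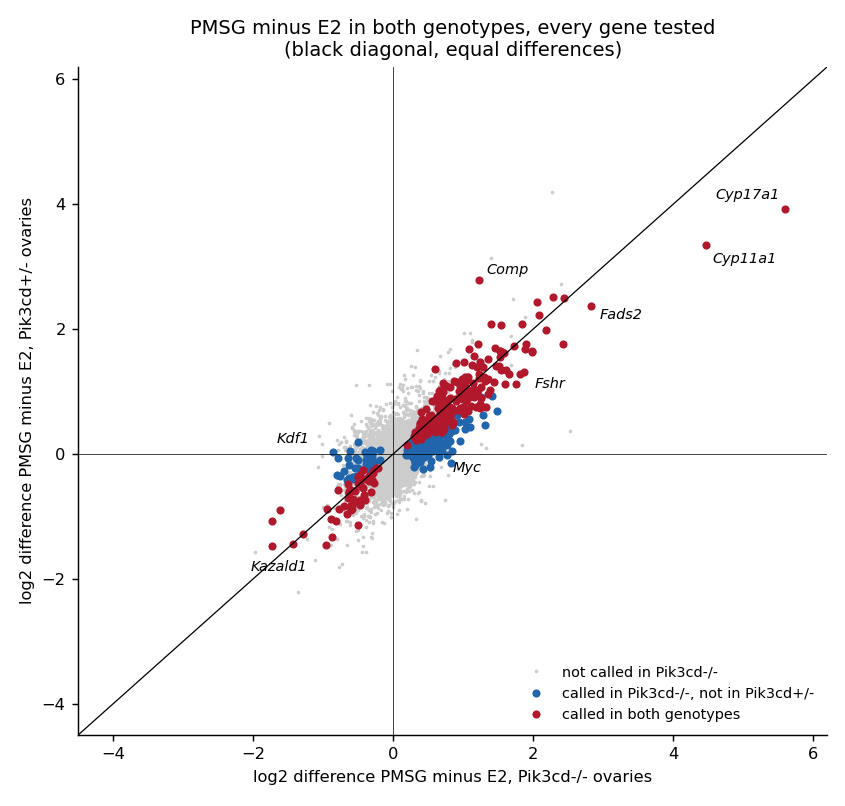
Log2 difference of PMSG minus E2 for every gene tested in Pik3cd-/- ovaries (horizontal axis) and in Pik3cd+/- ovaries (vertical axis), with genes called in both genotypes in red, those called in Pik3cd-/- but not in Pik3cd+/- in blue and others in grey. Of the coloured genes, 260 are red, and all red points lie in the lower left or upper right quadrant.

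No gene differed between the genotypes in its PMSG minus E2 difference at an adjusted p of 0.05 (limma, 0 of 12711, smallest adjusted p = 0.157, 0 under every alternative), though 1797 genes (14.1%) had an unadjusted p under 0.05. For Cyp17a1 the difference was 5.60 in Pik3cd-/- and 3.93 in Pik3cd+/- ovaries, and their distance was 1.67 (95% interval -0.15 to 3.5). Pik3cd-/- and Pik3cd+/- ovaries averaged 4140 and 4204 after PMSG, but 76.9 and 352 after E2, where the Pik3cd+/- arrays read 730, 220 and 105. For Cyp11a1 the distance was 1.11 (-0.27 to 2.5), for Fdx1 0.34 (-0.20 to 0.88), for Hsd3b1 -0.34 (-0.74 to 0.06) and for Fshr 0.57 (-0.35 to 1.48). Hao2 (-0.05, interval -1.02 to 0.92), Adamts5 (-0.01, -0.64 to 0.62) and Myf5 (-0.01, -0.77 to 0.75) had nearly equal differences in both genotypes.

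The list counts were close in both genotypes for steroid synthesis (5 of 14 higher in each) and cholesterol synthesis (10 of 19 higher in Pik3cd-/- and 11 in Pik3cd+/-). Called members of the list of matrix proteases and inhibitors numbered 7 in Pik3cd-/- and 5 in Pik3cd+/- ovaries. Of all genes tested, 3.31% were called higher in Pik3cd-/- and 3.53% in Pik3cd+/- ovaries. Mitosis genes were called lower after PMSG in 13 of 27 cases in Pik3cd+/- ovaries (median -0.42) and in none in Pik3cd-/- ovaries (median -0.02). The share of all genes tested that was called lower was 7.65% in Pik3cd+/- and 0.779% in Pik3cd-/- ovaries. Cenpf, a kinetochore protein, read 709, 761 and 641 after PMSG and 570, 747 and 682 after E2 in Pik3cd-/- ovaries. In Pik3cd+/- ovaries it read 522, 492 and 573 after PMSG and 821, 832 and 883 after E2. The distance of the differences was 0.75 (0.45 to 1.05), with an adjusted p of 0.157, so no mitosis gene passed the test between genotypes.

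The 5 genes with the smallest p of that test all had the same adjusted p. Besides Cenpf they were Sema4d, a semaphorin (-0.03 in Pik3cd-/- and -1.02 in Pik3cd+/-, distance 0.99), Tug1, a long noncoding RNA (0.49 and -0.04, distance 0.53), Tnrc6a, a microRNA silencing protein (0.42 and -0.25, distance 0.67), and C1qbp, a mitochondrial matrix protein (0.16 and -0.22, distance 0.39). Esr2 of the panel had 0.08 in Pik3cd-/- and -0.77 in Pik3cd+/- ovaries (distance 0.85, interval 0.39 to 1.31, adjusted p = 0.167). Comp had 1.23 and 2.78 (distance -1.55, interval -2.5 to -0.60, adjusted p = 0.204), with 1 Pik3cd+/- PMSG array at 708 and the others at 233 and 205. Myc had 0.70 and 0.07 (distance 0.63, interval 0.33 to 0.93, adjusted p = 0.157), its Pik3cd-/- E2 arrays reading 414, 350 and 405 and its Pik3cd+/- E2 arrays 769, 771 and 718. The intervals are of single genes and are not adjusted for the number of genes tested.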

How the data were processed

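Total RNA of whole ovaries was measured on 18 Affymetrix arrays, 6 groups of 3. Each deposited value is a linear intensity of a probe set on 1 array. The authors' processing is named as MAS5, with no version, per the submitters' processing notes, and how the arrays were scaled is not given in the sources used here. Fold changes of low signals are compressed by the pseudocount. No further normalization was applied.

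Of 45101 probe sets, 34945 had 1 gene symbol; the brightest (mean over 18 arrays) stood for its gene, which gave 18193 genes. Values were tested as log2(signal + 8.58), the 10th percentile of all values, in the 12711 genes with at least 1 group mean above the median log2 of 5.87. A model of 6 group means over all 18 arrays was fitted (limma 3.58.1, R 4.3.3, eBayes with trend, 12 residual and 3.67 prior degrees of freedom); tests were two-sided, with Benjamini-Hochberg adjustment over all genes tested. P-values measure the spread between these arrays, called biological replicates in the labels.

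The groups, the 36 gene lists and the panel of 22 genes were chosen with earlier results of these data known. Named genes were the 10 largest rises and 10 largest falls among called genes whose arrays did not overlap (without clone names), for each list with a call at most 4 members, by adjusted p, all panel genes, the 5 genes with the smallest p between genotypes and all steroid synthesis members. Other list members named, the AGGTCA motif and the fatty acid and haem lists were chosen after values were seen. Many lists share genes, and cell type lists hold genes that other ovarian cells express. Same-numbered arrays did not deviate together (correlations -0.03, -0.07 and -0.16), so the numbers were not taken as pairs. Alternatives were pseudocounts of 1, 64 or none, quantile normalization, leaving the filter out or raising it to the 70th percentile, eBayes without trend, only the groups compared, a replicate block, the most variable probe set of each gene and leaving out each array. Some genes of these pathways are not analysed here.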

Additional observations from a re-analysis of the deposited data

Results flagged for a closer look

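In 3 of the named genes all PMSG arrays lay above all E2 arrays in Pik3cd-/- ovaries and below them in Pik3cd+/- ovaries. Of the 3, Tnrc6a and C1qbp were named for their small p between genotypes, a choice that favours such a pattern. Tnrc6a, a protein of microRNA silencing, read 2315, 2336 and 2059 after PMSG against 1679, 1567 and 1763 after E2 in Pik3cd-/- ovaries, and 1790, 1874 and 2033 after PMSG against 2562, 2162 and 2066 after E2 in Pik3cd+/- ovaries. The distance of the differences was 0.667 on the log2 scale (adjusted p = 0.157). Its other probe sets in Pik3cd-/- ovaries gave -0.07 to 0.31, against 0.42 for the one used.

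C1qbp read 6895, 6639 and 6407 after PMSG against 5782, 5846 and 6168 after E2 in Pik3cd-/- ovaries, and 6340, 6244 and 6507 against 7717, 7403 and 7153 in Pik3cd+/- ovaries, a distance of 0.386 (adjusted p = 0.157). Its second probe set gave -0.10 in Pik3cd-/- ovaries, against 0.16. Akt2 had a distance of 0.373 (interval 0.15 to 0.59, adjusted p = 0.191), with Pik3cd+/- arrays at 352, 345 and 356 after PMSG against 371, 378 and 362 after E2. The test of the distance was not passed by any of the 3. Among all 12711 genes, 171 had arrays that did not overlap in both genotypes with opposite directions and 1004 with the same direction.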

How the results depend on the processing

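The call count of PMSG minus E2 in Pik3cd-/- ovaries (520) stayed within 424 to 580 under the pseudocounts, filters, quantile normalization (430 higher and 150 lower), eBayes without trend, the replicate block (454, of which 432 were among the 520) and the probe set with the highest variance, was 212 with only the groups compared and ran from 231 to 1338 as single arrays were left out. In Pik3cd+/- ovaries it was 611 to 1650 without single arrays. For PMSG minus untreated it was 485 after quantile normalization and 82 to 370 without single arrays, and for E2 minus untreated 2 without a filter, 3 after quantile normalization, 0 with only the groups compared (806 at an unadjusted p under 0.05), 2 with the replicate block, 16 with the highest-variance probe set and 2 to 24 without single arrays. The genotype difference gave 0 calls throughout. Of 61 named calls, 30 held under every alternative that tested them (Chil3 was tested in 15 of 16), and the fit of only the groups compared ended 24. Apart from Tnrc6a (0.42), the values that changed sign were those of named genes that were not called. After quantile normalization Amh had -0.0303. With the highest-variance probe set Kitl had 0.00632, Foxo1 0.0443, Igf1 -0.0311, C1qbp -0.104 and Tnrc6a -0.0641. Without single arrays the lowest and highest values were -0.321 and 0.259 for Fst, -0.0827 and 0.11 for Amh, -0.292 and 0.137 for Esr1, -0.0917 and 0.222 for Esr2, -0.26 and 0.141 for Kitl, -0.239 and 0.112 for Kit, -0.356 and 0.0769 for Gdf9, -0.277 and 0.0424 for Foxo1, -0.122 and 0.0325 for Sema4d and -0.0236 and 0.169 for Cenpf. The causes were not tested. Dim probes such as those of Chil3, Nrsn1 and Cited1 limit the precision of their differences.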

Other observations

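Some fatty acid genes were higher after PMSG in Pik3cd-/- ovaries, in a list drawn up after Fads2 had been seen to lead the calls, so its count is a description. Of 31 tested genes of fatty acid synthesis, desaturation, elongation and activation 12 were called higher, none lower and the others not called, with a median log2 difference of 0.33, and in Pik3cd+/- ovaries 10 were higher and 1 lower. Of all genes tested, 3.31% were called higher and 0.779% lower in Pik3cd-/- ovaries, and 3.53% and 7.65% in Pik3cd+/- ovaries. Next to Fads2, the delta-5 desaturase Fads1 had 1.61 ± 0.14 (adjusted p = 1.66e-05), the fatty acid binding protein Fabp3 1.81 ± 0.29 (adjusted p = 0.00203), the elongases Elovl6 1.88 ± 0.31 (adjusted p = 0.00227) and Elovl5 0.70 ± 0.09 (adjusted p = 3.0e-04) and the acyl-CoA synthetase Acsbg1 1.75 ± 0.14 (adjusted p = 9.66e-06). The cytosolic enzymes that supply and build fatty acids differed less: Acly had 0.51 ± 0.09 (adjusted p = 0.00277), Acaca 0.47 ± 0.13 (adjusted p = 0.0498) and Fasn 0.60 ± 0.19 (adjusted p = 0.0865). Scd1 had 1.21 ± 0.75 and did not pass (adjusted p = 0.412).

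Alas1, the rate-limiting enzyme of haem synthesis, was 1.3 ± 0.20 higher after PMSG (adjusted p = 0.00126) and was the 1 call among 7 haem synthesis genes, in a list also drawn up after its value was seen. Of all genes tested, 4.09% were called. Mrap, the accessory protein of melanocortin receptors, had 1.53 ± 0.23 (adjusted p = 0.00121), the tight junction protein gene Cldn11 1.84 ± 0.19 (adjusted p = 4.95e-05), the chemokine receptor gene Cxcr4 1.32 ± 0.20 (adjusted p = 0.00154) and the protease inhibitor gene Eppin, known from the male tract, 1.97 ± 0.23 (adjusted p = 1.36e-04). These genes were picked after their values were seen.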
